A study of Mus musculus with 3 samples.

Results

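Gamma-delta T cells of the IL-17 type were described in the aortic wall of Jak2WT mice and of mice with the Jak2V617F mutation in myeloid cells. They were chosen by their transcripts. A cell counted as one of them when it held at least 2 unique molecular identifiers (UMIs, each standing for 1 captured RNA molecule) of Cd3d, Cd3e and Cd3g together, at least 1 of Trdc, and at least 2 of Cd163l1, Trdv4, Il17a and Tcrg-C1 together. Cells with a UMI of Cd79a, a B cell gene, or with 10 or more UMIs of the macrophage genes C1qa, C1qb and C1qc per 10000 were left out. This left 97 of the 8471 barcodes, or 97 of the 5894 cells that had a clear mouse of origin and passed the quality limits, and 97 of the 855 T cells among them. The genes named here chose the cells, so that their levels are given below as a description and without a test.

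The study profiled CD45+ cells of the aorta by CITE-seq, in which the transcripts and the antibody-tagged surface proteins of the same cell are counted together. All animals were C57BL/6 mice. The 5 Jak2WT mice were littermate controls, and the 5 Jak2V617F Myel mice carried 1 Flex allele of Jak2V617F that LysM-Cre switches on mainly in myeloid cells. Of these 5 mice, 3 had aortic dilation (mice 6, 8 and 10, named by their hashtag antibody) and 2 had aortic aneurysm (mice 7 and 9), while mice 1 to 5 were Jak2WT. No treatment was given, blood cells labelled by an antibody injected shortly before death were excluded, and the age of these mice is not given in the sources used here. The cells of each mouse were stained apart with the antibodies and a hashtag, then pooled, sorted and run in 1 reaction, with the sort set to take similar numbers of cells from each genotype. Whether the gamma-delta cells themselves carried the recombined allele was not measured.

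Gamma-delta T cells carry a receptor built from a gamma and a delta chain in place of the alpha and beta chains of conventional T cells. The IL-17 type leaves the thymus already committed around birth, settles in connective and barrier tissues, and answers IL-23 and IL-1 beta with a burst of IL-17A without need of a new receptor signal. The transcription factors c-MAF (Maf) and SOX13 (Sox13) and the kinase BLK hold this program. One subset joins the Tcrg-V6 segment to Trdv4 and carries the scavenger receptor encoded by Cd163l1, and another, which uses Tcrg-V4, carries the related receptor encoded by 5830411N06Rik.

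The receptor segments that tell these subsets apart are shown first, because their transcripts are counted below. Each stretch is the last 90 bases of the segment in the GENCODE annotation of GRCm38, and the capitals mark the codon of the conserved cysteine at which the joined part of the receptor begins. Tcrg-V4 (chr13:19185417-19185506, plus strand) and Tcrg-V6 (chr13:19190840-19190929, plus strand) are V segment genes of the gamma chain, and Trdv4 (chr14:54075426-54075515, plus strand) is one of the delta chain.
Tcrg-V4: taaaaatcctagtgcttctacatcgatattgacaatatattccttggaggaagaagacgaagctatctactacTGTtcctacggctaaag
Tcrg-V6: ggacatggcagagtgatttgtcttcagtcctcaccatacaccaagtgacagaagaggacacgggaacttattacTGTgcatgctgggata
Trdv4: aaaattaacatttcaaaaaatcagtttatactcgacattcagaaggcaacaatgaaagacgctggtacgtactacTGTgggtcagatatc

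The surface receptor, which played no part in the choice, separated the chosen cells from the other T cells. The TCRgd antibody gave more than 3 counts, the 99th percentile of B cells, in 81 of 97 gamma-delta cells, or 83.5% (exact binomial 95% confidence interval 74.6 to 90.3). It did so in 0 of 692 T cells without Trdc, which allows a share of up to 0.532%, and in 0 of 153 ILC2-like cells. Averaged over the gamma-delta cells of each mouse, it gave 4, 6, 2.5, 4 and 9.5 counts a cell in Jak2WT mice 1 to 5, 6.5, 8 and 8.78 in dilation mice 6, 8 and 10, and 10.2 and 9.31 in aneurysm mice 7 and 9. The lowest of these means, in Jak2WT mouse 3, came from 2 of its 6 cells, as the rest had 0 TCRgd counts. The highest mean of the other T cells was 0.139 counts, in mouse 1. The antibody to TCRbeta, the conventional receptor, gave 0.0722 counts per gamma-delta cell and 5.66 per other T cell. All intervals here cover counting error only.

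**Figure D1:**
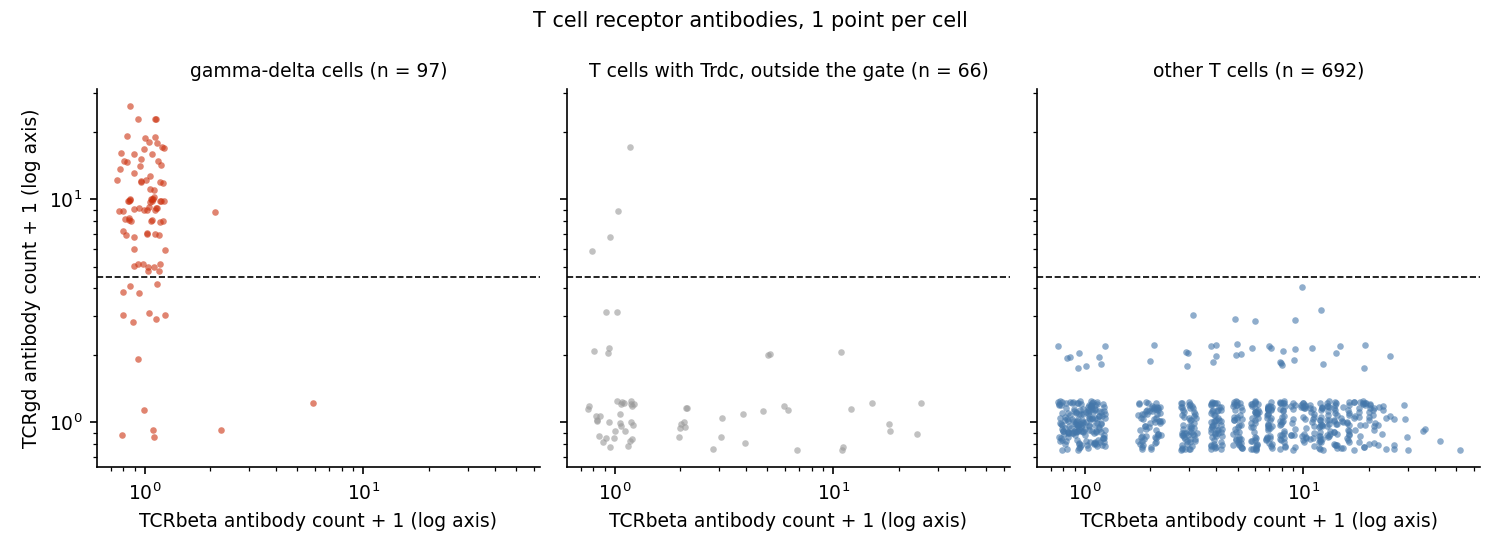
Counts of the TCRbeta antibody (horizontal, count + 1, log axis) against the TCRgd antibody (vertical, count + 1, log axis) in 97 gamma-delta cells, 66 T cells with Trdc outside the gate and 692 other T cells, 1 point per cell with a small random shift. The dashed line lies above 3 counts, the 99th percentile of B cells: 81 gamma-delta cells, 4 cells with Trdc outside the gate and 0 other T cells lie above it.

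In UMIs per cell, the gate genes ranged widely among the 97 cells. Trdc, the constant segment of the delta chain, had a median of 14 (1 to 41). Cd163l1 had a median of 6, Trdv4 of 5 and Tcrg-C1 of 7, and the 4 genes of the gate summed to a median of 20 (2 to 92). At the edge of the gate, the 1 cell whose 4 genes summed to 2 and the 2 cells with sums of 3 or 4 had 0 TCRgd counts, the last 2 both being thymocyte-like, while the 94 cells with sums of 5 or more had a mean of 8.99 counts. Just outside, 8 T cells with Trdc and a sum of 1 had a mean of 0.375 TCRgd counts, 58 with Trdc and a sum of 0 had a mean of 0.724, 4 of them above 3 counts, and 46 T cells with a sum of 2 or more but no Trdc had 0.13 TCRgd and 3.37 TCRbeta counts. Leaving Il17a out of the gate gave the same 97 cells.

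Trdv4 and Tcrg-V6 were the V segments seen in most cells. The gate used Trdv4 and Cd163l1, both of the subset that joins Tcrg-V6 to Trdv4. The shares of the segments therefore depend in part on the gate. A Trdv4 UMI was found in 87 of the 97 cells and a Tcrg-V6 UMI in 51, of which 49 held both, and 8 cells held neither. A Tcrg-V4 UMI was found in 3 cells and a Tcrg-V1 UMI in 9. In other T cells Tcrg-V6 was seen in 0.578% of cells. The libraries read the 3′ ends of transcripts, far from the V segments, so that a cell without a V segment UMI is not shown to lack that segment. 5830411N06Rik, the receptor gene of the Tcrg-V4 subset, was seen in 6 of the gamma-delta cells. Trgv2 was seen in 36.1% of the gamma-delta cells, but its sequence and those of Tcrg-C2 and Tcrg-C4 have near-identical copies in the same locus, and their counts are uncertain.

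The gamma-delta cells of Jak2WT mouse 3 stood apart before any comparison was made. Of its 6 cells, 4 carried marks of thymocytes (a UMI of Rag1, Rag2, Dntt or Ptcra, or at least 5 counts of both CD4 and CD8a antibodies), against 1 of the 91 cells of the other 9 mice. Its cells had a median of 21376.5 UMIs against 7180 over all gamma-delta cells, and 10 cell cycle genes summed to 2462 counts per 1000000 UMIs (CPM) there against 0 to 401 in the other mice. Its level of Trdc was 373 CPM, against 1583 to 2659 CPM elsewhere. The CD24 antibody, which stains immature thymocytes strongly, gave 113 counts per cell in this mouse and 1 to 11 in the others. Of the 88 genes and antibodies named against other T cells, 88 kept their direction and their side of the threshold without this mouse.

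A macrophage transcript was found in a like share of each lymphocyte class, while the summed level of macrophage markers differed between them, and markers of NK and B cells were in part seen in the gamma-delta cells. Lyz2, a macrophage gene, was found in 66.0% of them, 65.9% of other T cells, 66.0% of ILC2-like cells and 69.5% of B cells, at median depths of 7180, 7052.5, 6072 and 6342 UMIs. All 10 macrophage markers were seen in gamma-delta cells, the most abundant of them Apoe, and they summed to 547 CPM (225 to 1480 by mouse) against 722 CPM in other T cells and 952 CPM in ILC2-like cells. Of 6 NK cell markers, 4 (Ncr1, Klrb1c, Eomes and Klra8) were at 0, and of 8 B cell markers, 4, among them Ms4a1, Ighd and Pax5, were at 0. The B cell markers, led by Ighm, summed to 84.2 CPM in gamma-delta and 151 CPM in other T cells. The genes Cd4 and Cd8a had 0 UMIs in all 97 cells. Among macrophage and B cell markers Lyz2 and Ighm passed the test against other T cells below, both lower in gamma-delta cells, the call of Lyz2 being lost without aneurysm mouse 7 (adjusted p = 0.0562) and that of Ighm with at least 10 cells a sum (adjusted p = 0.135). NK cell markers were too low to be tested and summed to 404 CPM in mouse 3 and to at most 128 CPM elsewhere.

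Aneurysm mice held most of the gamma-delta cells. There were 2, 5, 6, 1 and 6 cells in Jak2WT mice 1 to 5, 4, 1 and 9 in dilation mice 6, 8 and 10, and 34 and 29 in aneurysm mice 7 and 9. Among T cells the shares were 5.26%, 8.33%, 3.37%, 6.67% and 10.0% in Jak2WT mice 1 to 5 and 6.25%, 2.13% and 6.62% in dilation mice 6, 8 and 10. In aneurysm mice 7 and 9 they were 23.8% and 25.4%. Both aneurysm mice lay above each of the other 8, and the other 8 lay below 11%.

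The difference was larger than the spread between mice. The share of T cells was 24.6% ± 1.18 (SD, n = 2) in aneurysm mice and 6.08% ± 2.53 (SD, n = 8) in the others, 18.5 percentage points apart (p = 0.0222 by an exact permutation test, two-sided, and no lower p can be had with 2 against 8 mice). Of all kept cells, it was 3.06% ± 0.445 (SD, n = 2) against 0.839% ± 0.311 (SD, n = 8), 2.22 points apart (exact permutation test, p = 0.0222). Over the 6 share tests made, of which 3 (aneurysm among T cells, and dilation) were added after the data were seen, both adjusted to p = 0.0667 (Benjamini-Hochberg over exact permutation tests), which does not pass 0.05. Without either aneurysm mouse the test of 1 against 8 cannot go below p = 0.111 (exact), and the differences were 1.90 without mouse 7 and 2.53 without mouse 9 for kept cells, and 19.4 and 17.7 points for T cells. When T cells were instead called gamma-delta by the TCRgd antibody alone, the share of T cells was 23.7% ± 0.0651 (SD, n = 2) in aneurysm, 3.99% ± 1.63 (SD, n = 3) in dilation and 5.08% ± 3.05 (SD, n = 5) in Jak2WT mice.

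No difference between the genotypes as a whole passed the test. Jak2V617F mice had 12.8% of T cells and Jak2WT mice 6.73%, a difference of 6.12 points (exact permutation test, p = 0.373, n = 5 against 5; adjusted p = 0.471). The difference was 3.38 points without aneurysm mouse 7, 2.97 without aneurysm mouse 9 and 9.11 without thymocyte-like cells (exact permutation test, p = 0.722, 0.730 and 0.127). Dilation mice had 1.73 points less than Jak2WT mice (exact permutation test, p = 0.393, n = 3 against 5; adjusted p = 0.471), and without thymocyte-like cells they had 1.60 points more, 8.35% against 6.75% (exact permutation test, p = 0.589, n = 3 against 5). A larger share can mean more gamma-delta cells or fewer other cells, and the sort fixed the number of cells per genotype, so that cell numbers in the tissue cannot be told from these shares. Median depth also differed, with 10333 and 11797 UMIs per kept cell in the aneurysm mice and 6119 to 9858 in the others, and with each cell thinned to 2000 UMIs before the gate the difference between aneurysm and the other mice was 19.1 points of T cells and 2.08 points of kept cells.

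**Figure D2:**
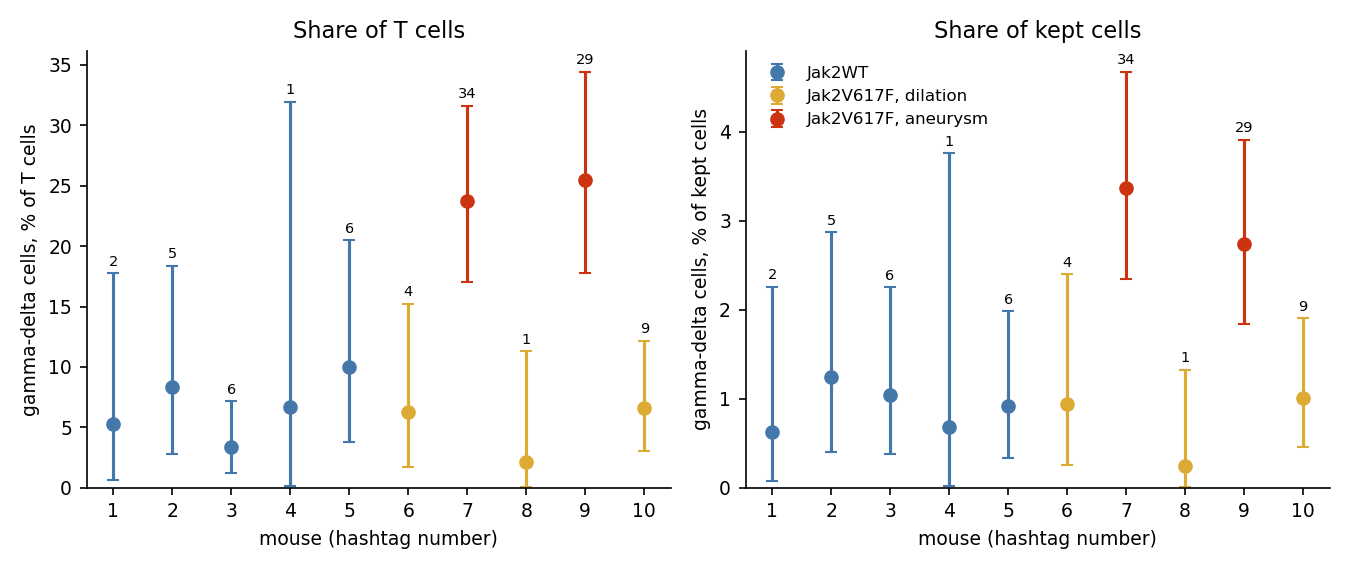
Gamma-delta cells as a percentage of T cells (left) and of kept cells (right) in each of 10 mice, with exact binomial 95% confidence intervals and the number of gamma-delta cells above each. The 2 aneurysm mice lie at 23.8% and 25.4% of T cells, and the other 8 mice at 10.0% or lower.

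Il17a, the gene of the cytokine that gives these cells their name, was a gate gene and is described only. It had 353 UMIs in 31 of the 97 gamma-delta cells, 32.0% of them, and the 5 highest cells held 62.6% of these UMIs, with up to 57 in 1 cell. The other kept cells together had 136 UMIs in 21 cells, so that gamma-delta cells, 1.65% of kept cells, held 72.2% of the Il17a UMIs. Outside the gate 14 other T cells held 123 UMIs, with a mean of 3.79 TCRbeta and 0.0714 TCRgd counts, and ILC2-like, NK and B cells held 0. By mouse, Il17a in gamma-delta cells stood at 131, 108, 7.77, 0 and 741 CPM in Jak2WT mice 1 to 5, at 41.4, 0 and 15.1 CPM in dilation mice 6, 8 and 10, and at 1044 and 276 CPM in aneurysm mice 7 and 9. The Jak2WT mice overlapped both other groups, while the aneurysm mice lay above the dilation mice. Single cells could set the level of a mouse, as all 37 Il17a UMIs of Jak2WT mouse 5 lay in 1 cell.

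Related cytokines were rarer. Il17f, which pairs with Il17a in a heterodimer, had 37 UMIs in 11 gamma-delta cells, 7 of which also held Il17a, and 66.1% of all Il17f UMIs of kept cells lay in gamma-delta cells. Il22 and Ifng had 0 UMIs in the 97 cells. These genes were too low to be tested. In other T cells Il22 was seen in 0.434% of cells.

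The promoters of Il17a, Il17f and Il23r, whose transcripts are described here, each hold AGGTCA, a core motif of nuclear receptors, shown in capitals (as TGACCT where it lies on the strand opposite the gene). Sequences are from RefSeq for GRCm38.p6 and run in the direction of the gene, and positions count from the start site. The stretch of Il17a (chr1:20730745-20730830, plus strand) holds it at -120 to -115, that of Il17f (chr1:20784283-20784368, minus strand) at -58 to -53, and that of Il23r (chr6:67491876-67491961, minus strand) at -66 to -61. Il23r holds a second match at -229 to -224, on the opposite strand, which is not shown.
Il17a: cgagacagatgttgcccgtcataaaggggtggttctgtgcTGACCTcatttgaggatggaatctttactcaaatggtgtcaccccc
Il17f: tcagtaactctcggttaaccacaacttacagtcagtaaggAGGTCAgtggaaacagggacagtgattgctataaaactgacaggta
Il23r: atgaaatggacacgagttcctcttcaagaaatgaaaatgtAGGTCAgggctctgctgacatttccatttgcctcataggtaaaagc
Of 32851 promoters, 14.0% hold AGGTCA on either strand in the 250 bases before the start. Of the lists used below, 0 of 7 promoters of regulators, 2 of 14 of cytokine receptors and 1 of 17 of effector cytokines, a list without the gate gene Il17a, did. These matches are a description of letters and not of binding.

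Against other T cells of the same mice, 4 of 7 tested regulators of the IL-17 program were higher in the gamma-delta cells. So were 4 of 9 cytokine receptor genes and 3 of 10 homing and residency genes. Lower were 9 of 9 genes of naive T cells, 7 of 9 of cytotoxic lymphocytes and 6 of 11 of receptor signaling. UMIs were summed per mouse and class where both classes had at least 5 cells (Jak2WT mice 2, 3 and 5, aneurysm mice 7 and 9, dilation mouse 10) and compared with edgeR's quasi-likelihood test with the mouse as a block. At an adjusted p under 0.05, 124 of 3908 genes were higher in gamma-delta cells (3.17%) and 191 were lower (4.89%). Of these, 35 and 88 did not overlap between the classes. The median log2 difference over all 3908 genes was -0.003. Leaving out Jak2WT mouse 3 raised the 315 calls to 531, and leaving out aneurysm mouse 7 lowered them to 206. Of the 692 other T cells 147 were thymocyte-like, 53 of them in mouse 3 and 45 in mouse 10, and without thymocyte-like cells 546 genes were called.

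In 3 of the 6 mice compared, mice 3, 5 and 9, the other T cells held more RNA of neutrophils than the gamma-delta cells. The 5 neutrophil markers, led by S100a9, summed to 19372 CPM in other T cells of aneurysm mouse 9, to 615 CPM in mouse 3, to 513 CPM in mouse 5 and to at most 36.5 CPM in the other mice. In gamma-delta cells they summed to 53.8, 7.77 and 120 CPM in Jak2WT mice 2, 3 and 5, to 29.8 and 35.6 CPM in aneurysm mice 7 and 9 and to 30.3 CPM in dilation mouse 10, S100a8 being the most abundant and Cxcr2 at 0. Only 8 other T cells, 4 of them in mouse 9, had more than 2 UMIs of these markers, and without them, an alternative added after the data were seen, 313 genes were called. Fcer1g and Lgals3, which myeloid cells also express, then fell by 2.77 and 2.63 (adjusted p = 0.000221 and 0.000856), the CD11b antibody fell by 1.03 (adjusted p = 0.0355) in place of 1.52, and Lyz2 (log2 difference -0.96) and the Sirpa antibody were no longer called (adjusted p = 0.0547 and 0.0616).

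Of 12 regulators of the IL-17 program, 7 were tested, 4 rose and 0 fell, with a median log2 difference of 1.63. Blk, a Src family kinase needed for these cells to develop, stood at 215, 23.3 and 381 CPM in Jak2WT mice 2, 3 and 5, at 212 CPM in dilation mouse 10 and at 277 and 298 CPM in aneurysm mice 7 and 9. In other T cells of the same mice Blk ran from 0 to 39.5 CPM, above only the value of mouse 3. The difference was 3.67 ± 0.519 on the log2 scale (SE, adjusted p = 0.000313), 3.56 without mouse 3 (adjusted p = 1.92e-05), and it was higher in 6 of 6 mice. Maf, the regulator that commits these cells, rose by 1.80 ± 0.303 (SE, adjusted p = 0.00124), from 178 to 722 CPM on average. Zbtb16, the factor PLZF of innate-like T cells, rose by 2.08 ± 0.466 (SE, adjusted p = 0.00959), a call lost without aneurysm mouse 9 (adjusted p = 0.0845). Rora rose by 1.16 (adjusted p = 0.0315), but not when any of mice 2, 5, 7, 9 or 10 was left out (adjusted p 0.0518 to 0.150).

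Sox13, the transcription factor typical of this subset, was too low to be tested. A Sox13 UMI was found in 47.4% of gamma-delta cells and in 0.578% of other T cells, and after thinning each cell to 2000 UMIs in 16.5% and 0.293%. It was at 0 in the gamma-delta cells of Jak2WT mouse 3 and seen in those of each other mouse.

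Of 13 cytokine receptor genes, 9 were tested, 4 rose and 0 fell. Il23r, whose product senses IL-23, stood at 215, 0 and 120 CPM in gamma-delta cells of Jak2WT mice 2, 3 and 5, at 182 CPM in dilation mouse 10, and at 93.7 and 209 CPM in aneurysm mice 7 and 9. Other T cells ran from 0 to 38.1 CPM of Il23r, so that mouse 3 was the only one in which the gamma-delta cells lay within their range. The difference was 3.08 ± 0.636 (log2, SE, adjusted p = 0.00576), and 3.26 ± 0.530 without mouse 3 (SE, adjusted p = 0.000272). Il1r1, the receptor of IL-1 beta, stood at 80.7, 23.3 and 100 CPM in Jak2WT mice 2, 3 and 5, at 167 CPM in dilation mouse 10, and at 124 and 187 CPM in aneurysm mice 7 and 9. It was higher than in other T cells in 6 of 6 mice, by 2.54 ± 0.549 (log2, SE, adjusted p = 0.00763). Il18r1 rose by 1.81 (adjusted p = 0.0160), a call lost without Jak2WT mouse 5 (adjusted p = 0.100) or aneurysm mouse 9 (0.0705). Il2ra rose by 1.74 (adjusted p = 0.0195), a call lost without Jak2WT mouse 5 (adjusted p = 0.119) or dilation mouse 10 (0.0609).

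Only 4 of 17 effector cytokine genes were abundant enough for the test, and 1 of them rose. Tnfsf11, the gene of RANK ligand, was higher by 1.99 ± 0.487 (log2, SE, adjusted p = 0.0162), and the call was lost without Jak2WT mouse 5 (adjusted p = 0.103), aneurysm mouse 9 (0.0620) or dilation mouse 10 (0.0508), against CD4 T cells only (0.0906) and with at least 10 cells a sum (0.215). Of 10 homing and residency genes tested, 3 rose and 1 fell. The chemokine receptor Cxcr6 averaged 865 CPM in gamma-delta cells and 178 CPM in other T cells (log2 difference 2.19 ± 0.371, SE, adjusted p = 0.00125). Ccr2 rose by 1.48 (adjusted p = 0.00697) and Cxcr3 by 1.75 (adjusted p = 0.00625). Itga4, a chain of the integrin VLA-4, fell by 1.67 (adjusted p = 0.0250), a call lost without mouse 2, 5, 7 or 10 (adjusted p 0.0514 to 0.108). Ccr6, the receptor by which many IL-17 cells are known, was seen in only 11 gamma-delta cells, all in the aneurysm mice, and was too low to be tested.

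**Figure D3:**
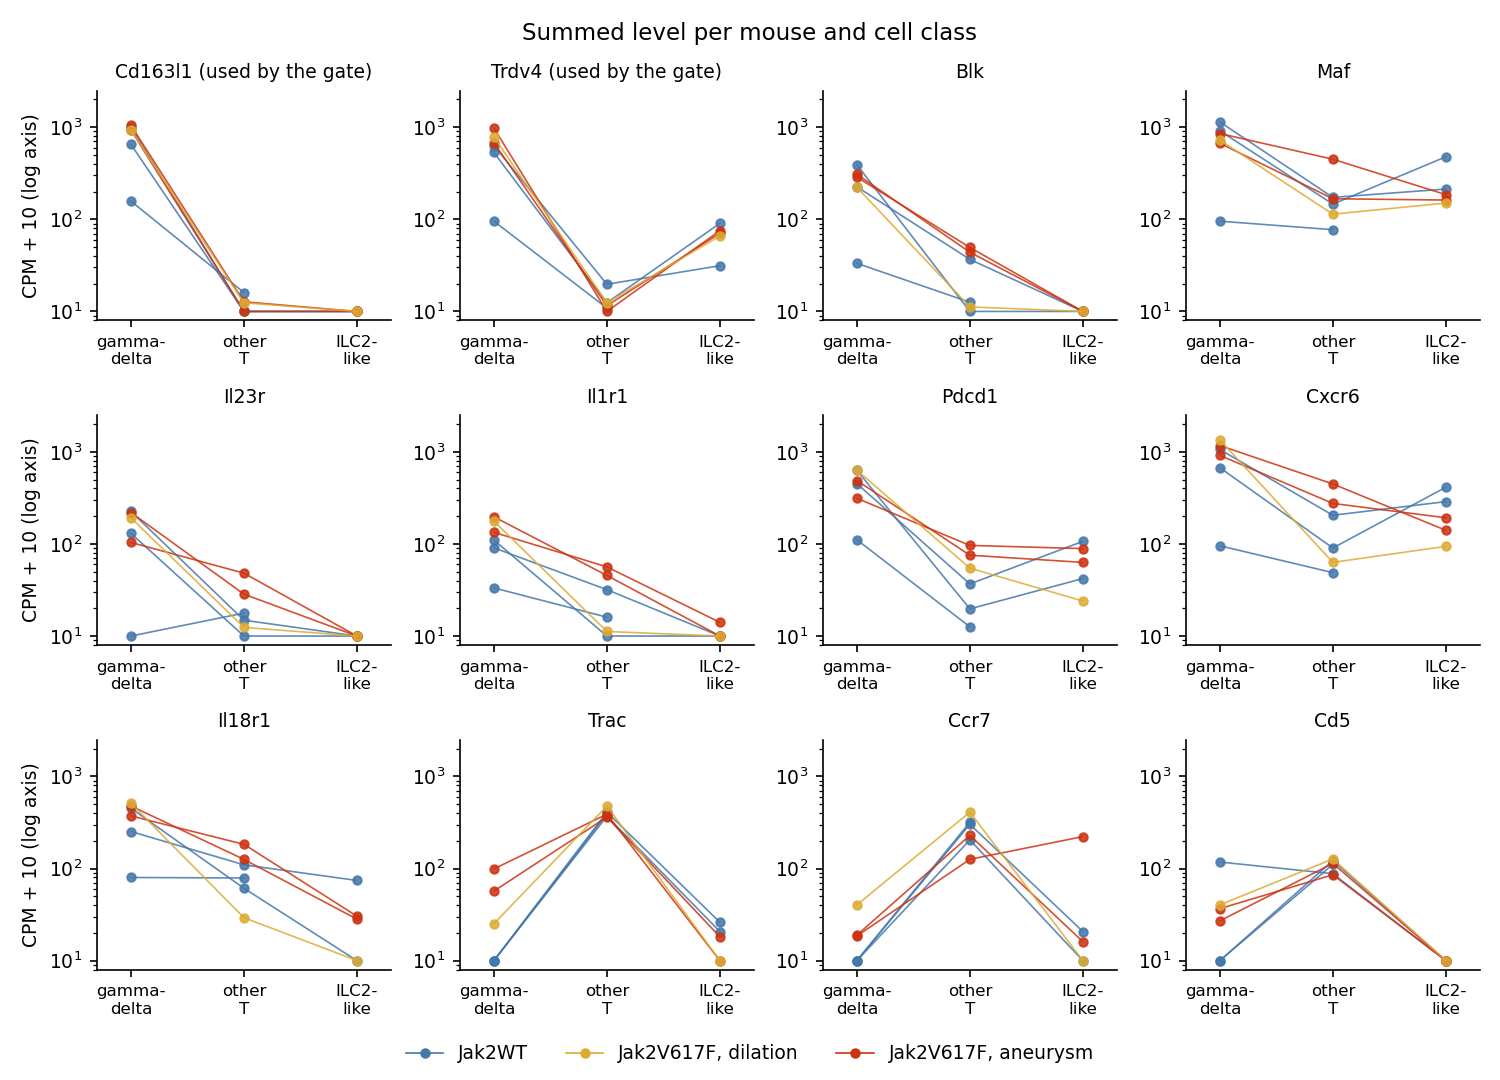
Level of 12 genes per mouse (CPM + 10, log axis) in gamma-delta cells, other T cells and ILC2-like cells of the same mouse, joined by lines and coloured by group, with Jak2WT mouse 3 not drawn for ILC2-like cells (4 cells). Cd163l1 and Trdv4 were used by the gate. The lowest blue line in the gamma-delta column of Cd163l1, Trdv4, Blk, Maf, Pdcd1 and Cxcr6 is Jak2WT mouse 3.

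A list of genes known from IL-17 type gamma-delta cells of other tissues moved mostly upward. Of 16 tested, 13 rose and 1 fell, with a median log2 difference of 1.83. Pdcd1, the gene of the inhibitory receptor PD-1, stood at 618, 101 and 441 CPM in Jak2WT mice 2, 3 and 5, at 621 CPM in dilation mouse 10 and at 477 and 302 CPM in aneurysm mice 7 and 9. Other T cells held 2.58 to 86.3 CPM of Pdcd1, and the classes did not overlap (log2 difference 3.40 ± 0.395, SE, adjusted p = 6.19e-05). The cytoskeletal gene Actn2 rose by 2.47 ± 0.371 (SE, adjusted p = 0.000518) and Podnl1 by 2.41 ± 0.429 (SE, adjusted p = 0.00183). The membrane protein genes Tmem176a and Tmem176b rose by 2.24 and 2.17, and the calcium-binding protein genes S100a4 and S100a6 by 1.82 and 2.07. The galectin gene Lgals3 was the member that fell, by 2.78 ± 0.409 (log2, SE, adjusted p = 0.000418).

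Among called genes that did not overlap between the classes, the largest rises were those of Pdcd1, Irak3, Tcrg-C2, Prelid2, Trgv2, Podnl1, Osbpl3, Slc16a6, Mfsd10 and Serpinb6a, the call of Trgv2 being lost with at least 10 cells a sum (adjusted p = 0.0574). The counts of Tcrg-C2 and Trgv2 are uncertain and may hold reads of near-identical copies. Tcrg-C1, a gate gene, lies in the same locus, so these rises are not independent of the gate. Irak3, a brake on signaling by the IL-1 receptor and Toll-like receptors, averaged 68.9 CPM against 7.14 CPM (log2 difference 3.05 ± 0.473, SE, adjusted p = 0.000649). Slc16a6, a transporter of the monocarboxylate family, averaged 300 CPM against 57.3 CPM (2.18 ± 0.274, SE, adjusted p = 0.000127). The largest falls were those of Cd8a, Ccl5, Klrd1, Dapl1, Gm2682, Slfn1, Gimap7, Cd8b1, Ly6c2 and Cd6. All 10 were also called and lower without the thymocyte-like cells (adjusted p of at most 9.58e-05). Of these Cd8a, Klrd1, Dapl1, Gm2682, Slfn1 and Gimap7 had 0 UMIs in the gamma-delta cells of the 6 mice. Set against 3 counts over the group, Cd8a was at least 55.3-fold lower, Dapl1 at least 24.1-fold, Gm2682 at least 23.2-fold and Klrd1 at least 21.8-fold lower. Ccl5, a chemokine gene of cytotoxic cells, averaged 4.63 CPM against 1159 CPM (log2 difference -8.56 ± 0.444, SE, adjusted p = 9.11e-09).

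All 9 tested genes of naive and recirculating T cells fell, with a median log2 difference of -3.01. Ccr7, which guides cells to lymph nodes, was at 0 CPM in gamma-delta cells of Jak2WT mice 2, 3 and 5, at 30.3 CPM in dilation mouse 10 and at 8.52 and 8.90 CPM in aneurysm mice 7 and 9. Ccr7 ran from 116 to 399 CPM in other T cells, well apart (log2 difference -4.86 ± 0.444, SE, adjusted p = 7.25e-06). Lef1 fell by 2.24, Klf2 by 3.01, S1pr1 by 2.35, Satb1 by 1.82 and Igfbp4 by 3.18, each at an adjusted p of 0.00270 or less, though Lef1 did not pass without the mouse block (adjusted p = 0.0573). Tcf7 fell by 0.99 (adjusted p = 0.0246), a call lost without any of mice 2, 5, 7, 9 or 10 (adjusted p 0.0529 to 0.0936).

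Of 9 tested genes of interferon-gamma type and cytotoxic lymphocytes, 7 fell and 1 rose, with a median log2 difference of -3.35. The costimulatory receptor gene Cd27, by whose absence IL-17 type cells are sorted, fell by 3.35 ± 0.560 (SE, adjusted p = 0.00119) and Nkg7, a granule gene, by 4.94 ± 0.485 (SE, adjusted p = 1.39e-05). Ctsw fell by 1.17 and Ccl4 by 1.47, and both calls were lost without aneurysm mouse 7 (adjusted p 0.0578 and 0.125), Ctsw also without mouse 9 (0.0592) and Ccl4 without mice 2 and 5 (0.0597 and 0.0835). Klrk1, the gene of the activating receptor NKG2D, rose by 1.51 ± 0.267 (log2, SE, adjusted p = 0.00175), which did not pass in a fit without the mouse block (adjusted p = 0.0616).

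Of 11 genes of T cell receptor signaling, 6 fell and 0 rose. Cd28, the costimulatory receptor gene, fell by 3.02, Cd6 by 5.75, Cd2 by 3.04, Fcer1g by 3.07 and the kinase gene Lck by 3.21, the last not passing without the mouse block (adjusted p = 0.112). Cd5, a brake on receptor signaling, fell by 2.22 (adjusted p = 0.00846), a call lost without aneurysm mouse 7 (adjusted p = 0.0514). Zap70 and Lat, which relay the signal, were tested and not called (adjusted p = 0.114 and 0.938). Of the segments, Trac, the constant part of the alpha chain, fell by 3.69 ± 0.471 (SE, adjusted p = 0.000133), and Trbc2 by 0.79 (adjusted p = 0.0359), a call lost without mouse 5, 7, 9 or 10 (adjusted p 0.0662 to 0.147). Transcripts of beta chain constant segments are also made before the receptor is joined, and Trbc2 averaged 960 CPM in gamma-delta cells.

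No gene of the JAK-STAT pathway passed the test against other T cells. Of 13 tested JAK-STAT genes 0 were called in either direction (median log2 difference -0.15), with Jak2 itself at 39.2 CPM in gamma-delta and 58.5 CPM in other T cells (adjusted p = 0.389). Against the ILC2-like cells described below, 1 of 6 tested passed, Socs2, a feedback inhibitor of the pathway, which fell by 1.34 (adjusted p = 0.00422), a share of the list near the 17.6% of all genes that were lower in that comparison. Of 4 interferon-stimulated genes tested, Ifi27l2a fell by 2.91 (adjusted p = 0.000101). Of 15 immediate-early and heat-shock genes, which digestion of tissue can induce, Junb alone rose, by 0.83 (adjusted p = 0.00453).

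**Figure D4:**
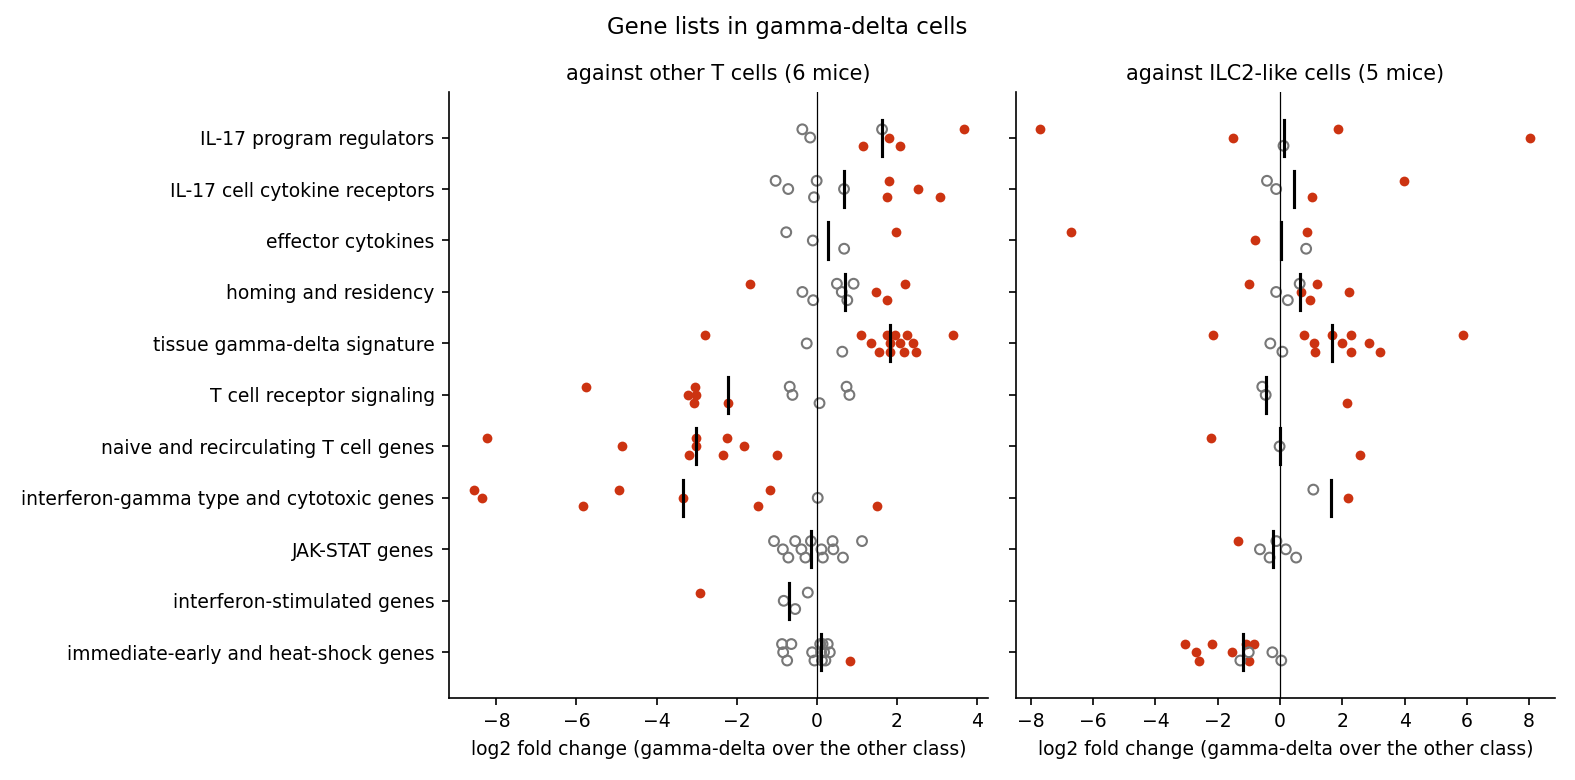
Log2 fold change of each tested gene of 11 lists in gamma-delta cells against other T cells (left, 6 mice) and against ILC2-like cells (right, 5 mice). Filled red points passed an adjusted p of 0.05, open points did not, and the black bar is the list's median. Points beyond 7 on either side are fitted values of genes with 0 or nearly 0 UMIs in 1 class and mark no exact size.

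Surface proteins, which played no part in the gate, gave a second account of the same cells. Trdc told the 2 classes apart, so the TCRgd antibody, among the higher ones, is no independent measure. Of 73 antibodies with counts, 7 were higher on gamma-delta than on other T cells (9.59%) and 16 were lower (21.9%) by edgeR's quasi-likelihood test at an adjusted p of 0.05. The median over all antibodies was -0.33. CD44, which binds hyaluronan and marks antigen-experienced cells, gave 106.2 and 104.8 counts per gamma-delta cell in Jak2WT mice 2 and 5 and 33.5 in mouse 3, 109 in dilation mouse 10, and 183 and 136 in aneurysm mice 7 and 9. On other T cells it gave 14.1 to 81.6 counts, and mouse 3 alone lay within that range (log2 difference 1.77 ± 0.241, SE, adjusted p = 7.99e-05, and 1.94 ± 0.223 without mouse 3, adjusted p = 4.97e-06). JAML, an adhesion molecule that costimulates gamma-delta cells, rose by 2.44 ± 0.367 (SE, adjusted p = 0.000192) and CD226 by 1.51 ± 0.308 (SE, adjusted p = 0.00229). CD3 was denser on gamma-delta cells, with 9.92 against 3.50 counts (log2 difference 1.65, adjusted p = 0.00449). CD127, the chain of the IL-7 receptor, rose by 1.43 (adjusted p = 0.00635) and CD137L by 1.67 (adjusted p = 0.00235), but neither passed with at least 10 cells a sum (adjusted p = 0.0843 and 0.0800).

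CD8a, CD4, TCRbeta, CD5, CD11c, Ly6C, CD11b, CD86, PIRAB, IAIE, NK11, Sirpa, CD24, CD26 and CD49d were among the 16 lower antibodies. With at least 10 cells a sum, which leaves aneurysm mice 7 and 9, Ly6C, CD86, IAIE, NK11, Sirpa, CD26 and CD49d were not called (adjusted p 0.0543 to 0.496). CD5 gave 42.5 against 133 counts, a fall of 1.55 on the log2 scale (adjusted p = 0.000799) that left clear staining on gamma-delta cells. For CD24, CD26 and CD49d, mouse 3 had the highest gamma-delta value, and the calls (adjusted p = 0.0467 each) were lost without any 1 of the other 5 mice (adjusted p 0.0689 to 0.182). Without mouse 3 they fell by 2.28, 3.25 and 1.99 (adjusted p = 2.36e-05, 0.00026 and 0.000353), in place of 1.72, 2.21 and 1.47. The calls of IAIE, NK11 and Sirpa were likewise lost without Jak2WT mouse 2 (adjusted p = 0.0643, 0.0596 and 0.0654), mouse 5 (0.0529, 0.0529 and 0.0843) or dilation mouse 10 (0.0583, 0.0554 and 0.110). Without aneurysm mouse 7 the adjusted p was 0.0992 for NK11 and 0.0701 for Sirpa, and without mouse 9 it was 0.112 for Sirpa.

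ILC2-like cells served as the second reference, being innate lymphocytes of the same tissue that make type 2 cytokines in place of IL-17. They were taken by Gata3 with Il1rl1, Il13, Il5, Calca or Areg (at least 2 UMIs in sum), fewer than 2 UMIs of CD3 genes and none of Trdc. Of 153 such cells, 32 held more than 2 UMIs of mast cell or of stromal markers, and mast cell markers summed to 21840 CPM in those of dilation mouse 10, so that counts are also given without these cells. Where both classes had 5 cells (Jak2WT mice 2 and 5, dilation mouse 10, aneurysm mice 7 and 9), 170 of 1061 genes were higher in gamma-delta cells (16%) and 187 were lower (17.6%). Without the 32 cells 162 of 945 genes were higher and 158 lower. The median log2 difference of all genes was 0.05.

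Blk stood at 215, 381, 277, 298 and 212 CPM in gamma-delta cells of mice 2, 5, 7, 9 and 10 and at 0 UMIs in the ILC2-like cells of these mice, at least 60.0-fold higher against 3 counts over the group. Actn2 averaged 339 CPM against 3.77 CPM (log2 difference 5.86 ± 0.466, SE, adjusted p = 6.58e-06). Jaml, whose protein was high on the surface, averaged 309 CPM against 8.15 CPM (4.02 ± 0.568, SE, adjusted p = 0.000304). Il18r1 rose by 3.98 ± 0.481 (SE, adjusted p = 0.000129) and Il7r, the receptor for a survival signal, by 1.03 ± 0.131 (SE, adjusted p = 0.000171). Prelid2, Slc16a6, Ckb, F2r, Avpi1 and Capg were the other 6 genes of the 10 largest rises without overlap, between 3.20 and 4.28 on the log2 scale. Maf rose by 1.85 and Pdcd1 by 2.86. Of the genes known from IL-17 type gamma-delta cells, 10 of 13 tested rose and 1, the transcriptional regulator gene Lmo4, fell by 2.16 (adjusted p = 0.000213).

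Nrgn, Hs3st1, Hes1, Csf2, Klrg1, Rnf128, Ctla2a, Tent5a, Inpp4b and Tnfrsf18 were the genes that fell furthest without overlap. Nrgn, a calmodulin-binding protein gene, ran from 386 to 554 CPM in ILC2-like cells and had 0 UMIs in gamma-delta cells of every mouse, at least 104-fold lower against 3 counts over the group. Csf2, the gene of the cytokine GM-CSF, averaged 6.64 CPM against 628 CPM (log2 difference -6.70 ± 0.376, SE, adjusted p = 1.65e-06). Klrg1 averaged 0.852 CPM against 186 CPM (-6.41 ± 0.489, SE, adjusted p = 6.22e-06). Hes1, a target of Notch, had 0 UMIs in the gamma-delta cells of these 5 mice but stood at 676 CPM in those of Jak2WT mouse 3, which had too few ILC2-like cells to enter. Id2, a factor that all innate lymphoid cells need, fell by 1.52 ± 0.230 (SE, adjusted p = 0.000468).

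Of 12 immediate-early and heat-shock genes tested here, 8 were lower in gamma-delta cells and 0 higher, with a median log2 difference of -1.19. Fos averaged 431 CPM against 2496 CPM in ILC2-like cells (-2.60 ± 0.280, SE, adjusted p = 6.22e-05), Fosb 542 against 3161 CPM and Zfp36 183 against 748 CPM. Jun, Jund and Nr4a1 fell as well, by 3.05, 0.99 and 1.54 (adjusted p = 0.00162, 0.00279 and 0.000832). The calls of Ier2 and Dusp1 were lost without the mast and stromal cells (adjusted p = 0.750 and 0.257) and without aneurysm mouse 9 (0.0627 and 0.0928), and that of Dusp1 also without mouse 2, 7 or 10 (0.141, 0.0953 and 0.0954).

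On the surface 8 of 73 antibodies were higher on gamma-delta than on ILC2-like cells (11%) and 6 were lower (8.22%). With at least 10 cells a sum, which leaves aneurysm mice 7 and 9, 0 of these 14 were called (edgeR adjusted p 0.101 to 0.359). When counts were scaled by their total alone, 6 were higher and 14 lower, and the median antibody moved from 0.01 to -0.42 on the log2 scale. TCRgd, JAML, CD5, CD3, CD103, CD226, CD44 and CD43 were the higher ones. For CD103 the gamma-delta cells of Jak2WT mice 2 and 5 stood at 0 and 0.333 counts, near the 0 counts on ILC2-like cells of both mice, so that the difference lies in mice 7, 9 and 10. Of the higher ones CD44 and CD43 were no longer called under total scaling (adjusted p = 0.259 and 0.532). The ILC2-like cells were chosen without Trdc, with fewer than 2 UMIs of CD3 genes and with transcripts of Il1rl1, the IL-33 receptor gene, or of 4 other genes. The TCRgd, CD3 and IL1RL1 antibodies, all among these counts, are therefore no independent measures here. IL1RL1 gave 0.054 against 3.16 counts. CD49d gave 0.539 against 4.01 counts and CD24 4.14 against 33.0 counts. CD117, MGL1 and PIRAB were also lower, and the last 2 were not called without the mast and stromal cells (adjusted p = 0.0795 and 0.149). Without dilation mouse 10 the adjusted p was 0.0581 for PIRAB and 0.0678 for CD43. CD44 and CD43 also lost their call without aneurysm mouse 7 (0.441 and 0.616) or mouse 9 (0.100 and 0.195).

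Receptor transcripts were also seen in ILC2-like cells. A Trdv4 UMI was found in 51 of 153 of them, 33.3%, and in 13.2% after thinning to 2000 UMIs, while their gate had set Trdc to 0. In other T cells Trdv4 was found in 1.73% and in B cells in 0.444%. Of the ILC2-like cells, 30.7% held Tcrg-C1. The level of Trdv4 was 72.6 CPM over the ILC2-like and 664 CPM over the gamma-delta cells.

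Within the gamma-delta cells, CD103 was the 1 antibody that passed the test between genotypes, among the 6 mice with at least 5 gamma-delta cells. CD103, encoded by Itgae, is the integrin chain that pairs with beta 7 and holds lymphocytes at E-cadherin. Its antibody gave 0, 0 and 0.333 counts per gamma-delta cell in Jak2WT mice 2, 3 and 5, 4 in dilation mouse 10, and 24.6 and 32.3 in aneurysm mice 7 and 9. In these 6 mice the Jak2V617F values lay above the Jak2WT values without overlap, and the aneurysm mice above dilation mouse 10. Such a separation was not particular to CD103. Values of ITGB7, ICAM1, Ly6C, CD80, JAML, CD44 and CD127 did not overlap between the genotypes either, and none of these was called. Dilation mice 6 and 8, with too few gamma-delta cells to enter the test, were at 0 counts like the Jak2WT mice 1 and 4. By edgeR's test with 3 mice against 3, CD103 was 1 of 72 antibodies higher in Jak2V617F gamma-delta cells (1.39%), and 0 were lower (0%), by 7.14 ± 1.12 on the log2 scale (SE, adjusted p = 0.00659), and without Jak2WT mouse 3 by 6.65 (adjusted p = 0.00521). The call was lost without Jak2WT mouse 2 (adjusted p = 0.132), and without Jak2WT mouse 5, aneurysm mouse 7 or aneurysm mouse 9 the number of antibodies called rose to 5. With the 2 aneurysm mice against the other 4, a comparison added after the data were seen, 0 of 72 antibodies passed (0%) and 5 had an unadjusted p under 0.05. In that comparison CD103 gave 28.4 against 1.08 counts (adjusted p = 0.650) and ITGB7, the beta 7 chain, 27.3 against 1.55 (adjusted p = 0.650).

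The gamma-delta cells differed widely in this protein, with 52 of 97 at 0 counts, 11 at 1 to 9 and up to 139 in 1 cell. With a limit of 10 counts, chosen after the values were seen and so given without a test, 18 of 34 cells in mouse 7, 15 of 29 in mouse 9 and 1 of 9 in mouse 10 were CD103-high, and none of the 25 cells of the other 7 mice. Itgae transcripts followed, at 76.7, 89.0 and 45.4 CPM in mice 7, 9 and 10 and at 0 in the other 7 mice. In mouse 9, 6 of the 20 Itgae UMIs lay in 1 CD103-high cell of 18692 UMIs, which had 0 TCRgd and 5 TCRbeta counts. On cDC1-like dendritic cells, which carry CD103, the antibody gave 59.7, 95.9, 160, 0 and 4.67 counts in Jak2WT mice 1 to 5, 73.6, 15.8 and 5.50 in dilation mice 6, 8 and 10, and 84.0 and 47.7 in aneurysm mice 7 and 9. Its values on these cells were lowest in mice 4, 5 and 10. Mice 3 and 4 held 1 cDC1-like cell each and mouse 5 held 3. Other T cells also had more of it in the aneurysm mice, 15.9 and 13.1 counts against 0.367 to 6.37, and ILC2-like cells had at most 0.25 counts in any mouse.

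Inside the aneurysm mice the CD103-high cells held more Il17a than the others. In mouse 7 Il17a stood at 1674 CPM in 18 CD103-high and 328 CPM in 16 other cells, and in mouse 9 at 445 CPM in 15 and 69.2 CPM in 14 cells. An Il17a UMI was seen in 55.6% against 25% of cells in mouse 7 and in 60% against 14.3% in mouse 9. Areg, the gene of the growth factor amphiregulin, stood at 168 against 36.4 CPM in mouse 7 and 154 against 0 CPM in mouse 9, and Blk at 417 against 118 and 348 against 237 CPM. In mouse 9, 14 of the 19 Areg UMIs of the CD103-high cells lay in 1 cell. The gate gene Cd163l1 was not higher in CD103-high cells of mouse 7 (889 against 1201 CPM) and alike in mouse 9 (930 against 919 CPM). TCRgd staining was 11.4 against 8.94 counts in mouse 7 and 10.3 against 8.29 in mouse 9, and median depth 6638 against 6799.5 and 7734 against 7127 UMIs. These splits use cells of 2 mice and carry no test, and a few cells rich in Il17a make up much of each sum.

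**Figure D5:**
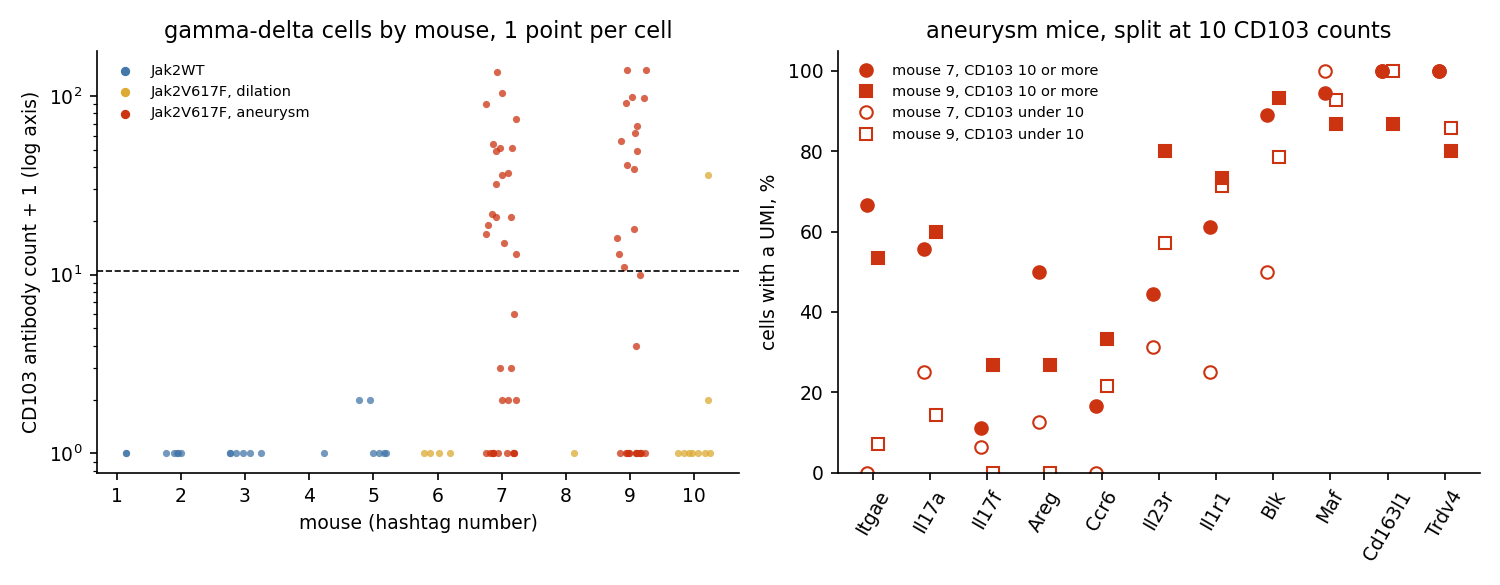
Left, CD103 antibody counts (count + 1, log axis) of each of the 97 gamma-delta cells by mouse, with the dashed line at the limit of 10 counts. Right, percentage of gamma-delta cells of aneurysm mice 7 and 9 with a UMI of 11 genes, split at 10 CD103 counts (filled symbols 10 or more, open symbols under 10). In both mice Itgae, Il17a, Il17f, Areg, Ccr6, Il23r, Il1r1 and Blk are seen in a larger share of the CD103-high cells. Maf is seen in 17 of 18 CD103-high and 16 of 16 other cells of mouse 7. In mouse 9 it is seen in 13 of 15 and 13 of 14 cells.

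No transcript passed the test between genotypes within the gamma-delta cells. Of 1489 genes 0 passed in either direction (0%) between the Jak2V617F mice 7, 9 and 10 and the Jak2WT mice 2, 3 and 5 by edgeR's test, 115 had an unadjusted p under 0.05, and DESeq2 called 0. Without Jak2WT mouse 2 it was 3 genes. The 3 mice of a group had 5 to 34 gamma-delta cells each, which limits what this test can detect. The 5 genes with the smallest p in the upward direction were Rel, Cd48, Osbpl3, Cstb and St8sia4, with log2 differences of up to 2.01, and in the downward direction Adh5, C1qbp, Eif1a, Taf1d and Npm3, with -2.03 to -1.63, all at an adjusted p of 0.432. Rel, a subunit of NF-kappa-B, stood at 191 to 332 CPM in Jak2V617F and at 38.8 to 108 CPM in Jak2WT mice, without overlap. C1qbp, a mitochondrial protein gene, stood at 59.6 to 97.9 CPM against 134 to 474 CPM.

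Nor did any transcript pass between the aneurysm mice and the other 4. Of 1877 genes 0 passed in either direction (0%) and 40 had an unadjusted p under 0.05. Those with the smallest p were Neurl3, Krt83, Znrf1, Ly6a and Bcl2a1d upward and Mcm3, Ruvbl1, Lig1, Gm11808 and Dut downward, all at an adjusted p of 0.999. Krt83, a keratin gene known from IL-17 type gamma-delta cells, stood at 289 to 324 CPM in the aneurysm mice and at 7.77 to 180 CPM in the other 4. It also stood at 296 CPM in Jak2WT mouse 4 and 289 CPM in dilation mouse 6, whose 1 and 4 cells were too few to enter, so that the groups overlapped over all mice. Mcm3, Lig1 and Dut serve DNA replication, and Dut stood at 660 CPM in Jak2WT mouse 3, whose cells also had the highest sum of cell cycle genes, against 30.3 to 220 CPM in the other 3 and 22.2 and 51.1 CPM in the aneurysm mice.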

How the data were processed

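Transcript, surface antibody and hashtag counts were deposited by the authors as 1 filtered matrix of unnormalized counts, made with Cell Ranger on mm10, and the submitters' processing notes also name Seurat 3.0.0. The 10 mice share 1 pool and were told apart by their hashtag, with groups from the labels. No column of per-sample values was left unused. Barcodes were kept when the top hashtag had at least 3 times the counts of the second, mitochondrial UMIs were at most 10% and at least 1000 gene UMIs were present. This kept 69.6% of barcodes, with medians by mouse of 6119 to 11797 UMIs. Barcodes with 2 hashtags were removed by the ratio, and no other doublet caller was run. The members, the gene lists and the comparisons were chosen with earlier results of these data known.

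Counts were summed per mouse and class where at least 5 cells were present and tested with edgeR 4.0.16 (R 4.3.3, TMM scaling, quasi-likelihood test, mouse block between classes of cells, Benjamini-Hochberg adjustment over all genes or antibodies). Gate genes were not tested, and a few genes and antibodies that passed through the same steps are not reported here. Named genes were those of the lists and up to 10 in each direction with the largest change among called genes without overlap, or, where fewer than 3 were called, the 5 with the smallest p. Exact permutation tests over mice, two-sided, compared the shares (scipy 1.17.1). The p-values measure the spread between mice of 1 run. Alternatives were DESeq2 1.42.0, other filters, scalings and gates, no mouse block, and leaving out each mouse. The procedure was tested on simulated data. Coordinates are from GENCODE for GRCm38, matched by identifier.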

Additional observations from a re-analysis of the deposited data

Results flagged for a closer look

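In 33 sets of values per mouse, 7 had 1 mouse farther from the rest than Dixon's 95% limit, where chance gives about 1 in 20. In Jak2WT mouse 3, the gamma-delta cells had the highest counts per cell of the antibodies CD24 (113), CD26 (3.67) and CD49d (3.17). This is the mouse in which 4 of 6 gamma-delta cells carried marks of thymocytes. The other 4 were transcripts, with Ccr7 at 30.3 CPM (2 UMIs) in dilation mouse 10, Cd5 at 108 CPM (4 UMIs) and Jaml at 484 CPM (18 UMIs) in Jak2WT mouse 2, and Klrg1 at 4.26 CPM (1 UMI) in aneurysm mouse 7. The values of Ccr7, Cd5 and Klrg1 thus rest on 1 to 4 molecules.

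Signals were also seen outside the main comparisons. Of the 66 T cells with Trdc that missed the gate, 4 had more than 3 TCRgd counts, 6.06% against 0 of 692 other T cells without Trdc, and all 4 were in aneurysm mouse 7. Of the ILC2-like cells, 33.3% held a Trdv4 UMI, while their gate had set Trdc to 0, against 1.73% of other T cells. Their causes were not tested.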

How the results depend on the processing

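The difference in share between dilation and Jak2WT mice, which did not pass the test, changed its direction: among T cells it was 1.60 points without thymocyte-like cells (-1.73 with them), and among kept cells it ran from -0.312 to 0.0733 points with 1 mouse left out. No other difference in share and no named gene or antibody changed its direction. The 315 genes called against other T cells became 719 with no filter on low counts, 504 with at least 10 cells a sum (aneurysm mice 7 and 9 alone) and 546 without thymocyte-like cells, and 206 to 531 with 1 mouse left out. The 357 called against ILC2-like cells became 810 with no filter and 217 with at least 1 cell a sum, where fewer genes could be tested, and 254 to 443 with 1 mouse left out. Between genotypes, 72 genes passed with no filter and 0 to 3 with 1 mouse left out. Within Jak2V617F, the 18 genes that passed between aneurysm mice 7 and 9 and dilation mouse 10 rest on the assumption that the lone mouse varies like the other group, and its own spread is unknown. Antibodies called against ILC2-like cells fell from 14 to 0 with at least 10 cells a sum, which leaves aneurysm mice 7 and 9, and ran from 13 to 18 with 1 mouse left out, against other T cells from 17 to 25. Between genotypes 5 antibodies passed under total scaling and 0 to 5 with 1 mouse left out. For aneurysm against the other mice 2 passed under total scaling and 2 without thymocyte-like cells, and 0 to 2 with 1 mouse left out. With 1 mouse left out, the differences in share ran from 0.330 to 1.11 (kept cells) and 2.97 to 8.79 points (T cells) between genotypes, and from 1.90 to 2.53 and 17.7 to 19.4 points for aneurysm.

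Of 65 genes named against other T cells, 48 stayed on their side of the threshold under every alternative counted, and of 53 against ILC2-like cells, 41. Of the antibodies 13 of 23 and 0 of 14 did. The fit against CD4 T cells only was left out of these counts. A gene too low to be tested under an alternative was not counted as changed there. Leaving out thymocyte-like cells, mast or stromal cells and the 8 other T cells with more than 2 UMIs of neutrophil markers (313 genes and 22 antibodies then called), the gene and antibody comparisons of aneurysm against the other mice, the share of T cells in aneurysm and the shares in dilation were chosen after seeing the data. Scaling by isotype controls was not run, since their sum was 0 in some mice. At least 10 cells a sum left too few mice for the genotype comparison. The numbers of mice do not pair them across genotypes, and the 2 classes of cells compared within a mouse share its hashtag, which the mouse block covers: without it 360 genes were called against other T cells. Il17f, Il22 and Ifng were below the filter on low counts and were not tested.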
